A study of Arabidopsis thaliana with 7 samples.

Results

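The transcriptome of wild-type Arabidopsis thaliana embryos at the 8-cell stage was measured on 4 arrays, which are described here gene by gene in order of signal. The 4 arrays were those labelled as wild type of the Columbia (Col-0) ecotype, 1 RNA sample each, out of 7 arrays in the study. The other arrays carry bdl mutant embryos and entered no value below. All wild-type arrays share the same stage, ecotype and absence of a labelled treatment. Plants grew under long days. Ovules were drawn out of siliques, and each sample pooled about 40 to 50 washed embryos picked with a micromanipulator, so a value is an average over a pool of whole embryos with any attached material. In such bulk RNA, fewer cells of a type and less RNA per cell cannot be told apart. Nothing in the labels says whether the 4 pools came from separate harvests, and the series' design text speaks of 3 replicates where 4 arrays are labelled.

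Each of the 27826 probe sets names 1 locus. The members described are the 300 loci with the highest mean log2 intensity over the 4 arrays, which are 1.08% of all probe sets. The mean chose them, so their level is a description and was not tested. A probe set's signal also depends on its probes, so a rank orders signals on this array and not the abundance of RNA of different genes. Names come from a RefSeq gene table. It gives a symbol of their own to 103 of the 300, lists 178 by locus only, and does not hold the other 19, which are the organelle loci.

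At the 8-cell stage the embryo proper has just formed an upper and a lower tier of cells above a suspensor, the stalk that joins the embryo to the maternal tissue. The cells divide without much growth, and protein synthesis, DNA packaging into new chromatin and mitochondrial respiration supply each division. Plant cells hold 3 genomes. Most genes are nuclear, while the plastid and mitochondrial genomes keep small sets for their own gene expression and for photosynthesis or respiration.

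The arrays were alike in overall signal and differed in a few ways that touch the results. Median log2 intensity lay between 3.08 and 3.20, the value at rank 300 between 9.71 and 9.88, and Pearson's r between pairs of arrays, over genes, between 0.93 and 0.96. The 300 loci held between 21.2% and 22.2% of the summed intensity of each array. Array 4 stood somewhat apart. Of the 300, 164 had their lowest value there, against 20 to 88 on each of the others. A list of pollen genes had a mean log2 intensity of 3.89 on array 4 and 2.98 on array 2, against 2.42 and 2.40 on arrays 1 and 3. The part of pollen RNA in the results below was not tested. Without array 4, a choice made after seeing the data, the top 300 held the same numbers of 281 nuclear, 6 plastid and 13 mitochondrial genes, and 23 of 26 counts of gene groups in the top 300 were equal.

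**Figure D1:**
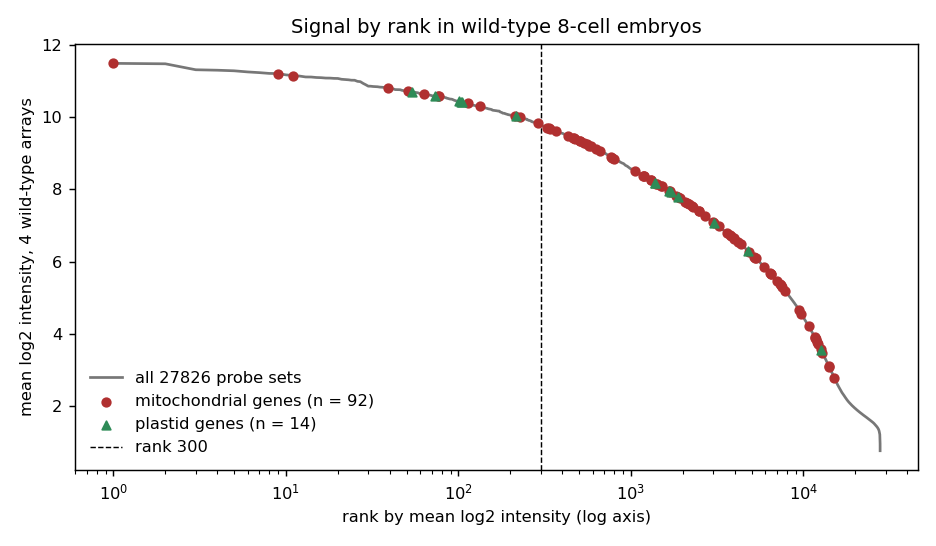
Mean log2 intensity of all 27826 probe sets (vertical axis) against rank (horizontal log axis), with the 92 mitochondrial and 14 plastid genes marked and a dashed line at rank 300. The curve is flat at the top, where 13 mitochondrial and 6 plastid genes lie left of the line, and falls to a floor near 1 to 2.

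The highest-ranked locus was mitochondrial, ATMG00160. Its log2 intensities were 11.53, 11.49, 11.47 and 11.46 on arrays 1 to 4, with a mean of 11.49 ± 0.03 (SD, n = 4). The highest nuclear locus, AT5G02450, followed at 11.38, 11.54, 11.53 and 11.44, with a mean of 11.47 ± 0.07, and its range overlapped that of ATMG00160. Next came AT3G23390, for which the table gives the synonym RPL36aA, a protein of the large ribosomal subunit. It reached 11.39, 11.43 and 11.35 on the first 3 arrays and 11.08 on array 4, which was its lowest. AT4G29410 stood at rank 4, with 11.18, 11.50, 11.24 and 11.27.

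AGP15 was the highest nuclear gene with a symbol, at rank 5. It encodes an arabinogalactan protein, a heavily glycosylated protein of the cell surface. Its values of 11.22, 11.36, 11.28 and 11.25 give a mean of 11.28 ± 0.06. FKBP12, a peptidyl-prolyl isomerase, stood at rank 10 with 11.04, 11.28, 11.34 and 11.01, and arrays 2 and 3 lay above arrays 1 and 4. CPN10, the co-chaperonin that caps the mitochondrial folding chamber, was at rank 13. It read 11.30 on array 2, while the other arrays held 11.02 to 11.06. HIS4, a gene for histone H4, was at rank 15 with 11.06, 11.14, 11.16 and 11.02. SAC52, ribosomal protein L10, was at rank 20 with 10.97, 11.08, 11.11 and 11.11.

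The remaining members of the 20 highest nuclear loci are known to the table by locus only, apart from AT3G18740. Their means ran from 11.25 for AT2G43460 down to 11.03 for AT3G18740. AT3G60245 was the steadiest of those above rank 10, with 11.16, 11.26, 11.22 and 11.19. AT5G03850 at rank 7 was high on arrays 1 to 3, at 11.29, 11.33 and 11.37, and lowest on array 4, at 10.94. AT1G72020 at rank 22 was highest on array 1, at 11.29, and lay between 10.88 and 11.03 on the others. AT3G11120 at rank 17 ran the other way, with 11.20 on array 4 as its highest value and 10.95 on array 1 as its lowest. AT3G18740, to which the gene table alone gives the name RLK902, which was not checked here and may be wrong, stood at rank 23 with 11.06, 11.10, 11.01 and 10.95. AT5G38170 at rank 21 and its neighbour AT5G38180 at rank 254 form 1 of 3 pairs of adjacent loci in the top 300, with means of 11.05 and 9.92. The others were AT3G53730 at 10.40 with AT3G53740 at 9.84, and AT3G41761 at 10.29 with AT3G41762 at 9.87.

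**Figure D2:**
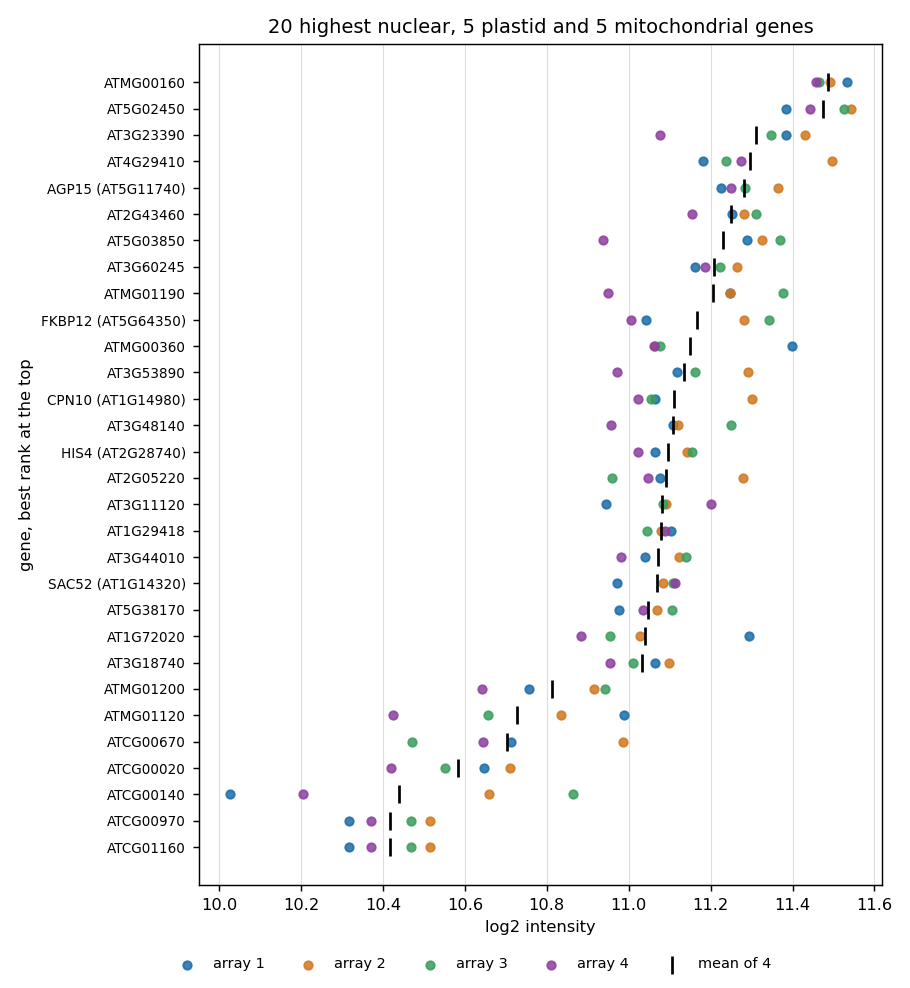
Log2 intensity on each of the 4 wild-type arrays (coloured points) and the mean (black bar) of the 20 highest nuclear, 5 highest plastid and 5 highest mitochondrial genes, best rank at the top. Of the 30 genes, 18 span less than 0.3 and 17 are lowest on array 4, while ATCG00140 spans from 10.03 on array 1 to 10.86 on array 3.

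Organelle genes were few among the probe sets and common at the top. Of 92 mitochondrial probe sets 13 were in the top 300, or 14.1%, and of 14 plastid probe sets 6 were, or 42.9%, beside 281 of 27720 nuclear ones, or 1.01%. Their median log2 intensity over all members was 7.80 for mitochondrial and 8.18 for plastid genes, against 3.13 for nuclear genes. Among the top 100 there were 8 mitochondrial and 2 plastid genes. The kit makes whole-transcript cDNA, and how it primes organelle RNA against nuclear RNA was not tested.

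Below ATMG00160, the next mitochondrial loci were ATMG01190 at rank 9 and ATMG00360 at rank 11. ATMG01190 gave 11.25, 11.25, 11.38 and 10.95, with array 4 lowest. ATMG00360 gave 11.40 on array 1 and 11.06 to 11.08 on the other arrays. ATMG01200 had a mean of 10.81 ± 0.14 and ATMG01120 of 10.73 ± 0.24, the latter running from 10.99 on array 1 to 10.42 on array 4. The levels of the 92 mitochondrial genes ranged down to 2.80 for ATMG01310, which read 5.52 on array 1 and down to 1.74 on array 3. Mitochondrial genes were also uneven between arrays. Their median was 7.51 on array 4 against 7.80, 8.17 and 8.15 on arrays 1 to 3, and 51.1% of them had an SD over 0.5, against 28.7% of all probe sets. Over arrays 1 to 3 these shares were 34.8% and 25.7%.

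The highest plastid loci were ATCG00670, ATCG00020, ATCG00140, and the pair ATCG00970 and ATCG01160. ATCG00670 gave 10.71, 10.99, 10.47 and 10.64. ATCG00020 gave 10.65, 10.71, 10.55 and 10.42, with a mean of 10.58 ± 0.13. ATCG00140 was less even, at 10.03 and 10.21 on arrays 1 and 4 and 10.66 and 10.86 on arrays 2 and 3. The sixth, ATCG00580, had a mean of 10.02 ± 0.32. After these 6 the plastid genes left a gap, and the next were ATCG00990 and ATCG01140 at rank 1383 and 1384, both at 8.18 ± 0.82. The lowest was ATCG00230 at 3.57.

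Some organelle signals cannot be tied to 1 locus. In the top 300, 16 loci formed 8 pairs whose values were identical on all 4 arrays. They include 6 nuclear loci that equal an organelle locus. AT2G05935 equalled ATCG00670, AT2G07688 equalled ATCG00020, AT3G32990 equalled ATCG00140, AT2G07707 equalled ATMG00480, AT2G07755 equalled ATMG01340 and AT2G07675 equalled ATMG00980. Col-0 is known to carry a large insertion of mitochondrial DNA in chromosome 2, in the range of loci whose identifiers begin with AT2G07. Of 130 probe sets with that prefix, 11 were in the top 300, or 8.46%, against 0.979% of the nuclear loci without it. Their median log2 intensity was 6.73 against 3.12. The highest was AT2G07763, which the table names as a tRNA gene, at 11.11, 10.72, 10.80 and 10.69. With identical probe sets counted once, 2 plastid genes were left in the top 300, since a pair is kept under its first identifier, which is the nuclear one where there is one.

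**Figure D3:**
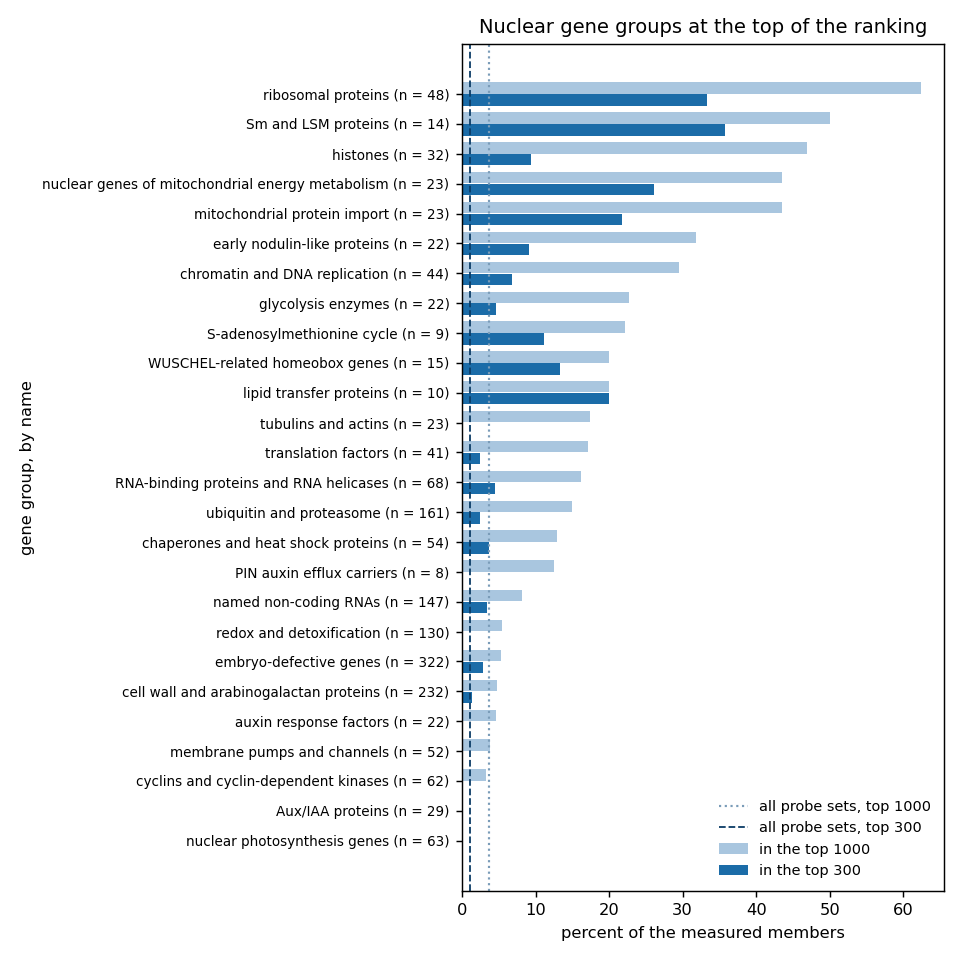
Share of the measured members of each nuclear gene group (horizontal axis, percent) that ranked in the top 300 (dark bars) and in the top 1000 (light bars), with dashed and dotted lines at the shares of all probe sets, 1.08% and 3.59%. Ribosomal proteins and the Sm and LSM proteins stand furthest right, and the nuclear photosynthesis genes and Aux/IAA proteins have no bar.

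Nuclear genes were grouped by their symbols and synonyms in the gene table. A gene listed by locus only joined a group only where a synonym placed it, so the counts leave out unnamed members. The groups took 67 of the 300, and the other 233 carry no name that the name patterns took. AT3G23390, with its synonym RPL36aA, is among the latter. A share is read against 1.08% of all probe sets in the top 300 and 3.59% in the top 1000.

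By count, ribosomal proteins led the groups. Of 48 named ribosomal proteins, 16 were in the top 300, or 33.3%, and 30 in the top 1000, with a group median of 9.08 against 3.15 over all probe sets. AT3G23390 (RPL36aA), at rank 3, was not taken into the group and ranked above all its members. Within the group, RPL34 came after SAC52 and gave 10.74, 10.69, 10.66 and 10.62. RPS15A followed with 10.70, 10.75, 10.67 and 10.59, and RPS15 with 10.60, 10.63, 10.77 and 10.44. RPS28 read 10.57 ± 0.04. Several subunits are encoded by more than 1 gene and had both copies in the list. RPS6 had a mean of 10.26 ± 0.24 and EMB3010, the other gene for S6, of 10.11 ± 0.21, and RPS6 was the higher on every array. The L24 genes RPL24A, at 10.31 ± 0.23, and STV1, at 10.19 ± 0.02, overlapped, with RPL24A higher on arrays 2 and 3 and lower on arrays 1 and 4. SAG24, a second L10 gene at 10.56 ± 0.07, lay below SAC52 on every array. How far probes of such copies take up each other's RNA was not tested. Of 41 named translation factors, 1 was in the top 300, or 2.44%, and 7 were in the top 1000, or 17.1%. The 1 in the top 300 was FBR12, the factor eIF5A, at 9.89, 10.05, 9.97 and 9.89.

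Small RNA-processing proteins were also high. Sm and LSM proteins form rings that bind spliceosomal RNAs or decaying mRNA. Of 14 named ones, 5 were in the top 300, or 35.7%, and 7 in the top 1000. SAD1, the LSM5 protein, gave 10.33, 10.56, 10.43 and 10.51. LSM2 gave 10.12, 10.05, 10.06 and 10.07, and was 1 of the 6 steadiest members. SNRNP-G gave 9.77, 9.96, 9.83 and 9.91, while RUXF, the SmF protein, was high on array 1 alone, at 10.90 against 9.49 to 9.54. LSM6A at 9.76 and LSM3A at 9.76 lay just under the limit, while LSM6B at 7.75 and LSM3B at 7.62, their paralogues, lay well below. FIB1, a fibrillarin of the nucleolus, had 10.30 ± 0.08, and was singled out after its values were seen. Of 68 named RNA-binding proteins and helicases 3 were in the top 300, namely GRP4, SNRNP-G and RUXF. GRP4 gave 10.91 on array 1 and 9.54 to 9.77 on the others. Without array 1, neither GRP4 nor RUXF remained and the count was 1.

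Chromatin proteins formed a broad upper group. Of 32 named histone genes 3 were in the top 300 and 15 in the top 1000, with a median of 8.50. Histone genes that the gene table lists by locus only, with no synonym naming them, were not counted, so these counts may be too low. HTB2, a histone H2B, gave 10.78, 10.91, 10.85 and 10.67, and HTA6, a histone H2A, gave 9.91, 10.15, 10.01 and 9.96. At the other end lay HTA4 at 1.71 and MGH3, a histone H3 known from the male germline, at 1.75. Of 44 genes for other chromatin and replication proteins 3 were in the top 300. HMGB4, a high mobility group protein, gave 10.39, 10.56, 10.30 and 10.31. The plant-specific histone deacetylases HD2B and HDA3 gave means of 10.00 ± 0.17 and 9.90 ± 0.18. Without array 1 the count of these chromatin genes was 5. Cell cycle regulators were near the share of all probe sets. None of 62 cyclins and cyclin-dependent kinases was in the top 300, against 1.08%. In the top 1000 there were 2, or 3.23%, against 3.59%, namely CYCB1;3 at 8.92 ± 0.34 and CKS2 at 8.84 ± 0.14. The group median was 4.80, against 3.15 over all probe sets. Tubulins and actins had no member in the top 300 and 4 of 23, or 17.4%, in the top 1000, led by TUA4 at 9.72 ± 0.17.

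Nuclear genes for mitochondria were frequent beside the mitochondrial genome's own. Of 23 genes of mitochondrial energy metabolism, 6 were in the top 300 and 10 in the top 1000. AAC1, which exchanges ADP for ATP across the inner membrane, gave 10.38, 10.74, 10.50 and 10.38. VDAC1, a pore of the outer membrane, gave 10.45, 10.82, 10.46 and 10.05, so that array 4 was lowest. CIB22, a subunit of complex I, gave 10.51, 10.33, 10.26 and 10.17. CYTC-1, a cytochrome c, gave 10.14, 10.27, 10.26 and 10.00. Of 23 genes for mitochondrial protein import, 5 were in the top 300. They were small subunits: TIM13 at 10.39 ± 0.10, TOM6 at 10.37 ± 0.11, TIM10 at 10.16 ± 0.12, TOM5 at 10.10 ± 0.22 and TIM8 at 9.95 ± 0.05. The channel protein TOM40, at 9.68 ± 0.21, and TIM50, at 6.73 ± 0.70, were outside the list.

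Of 63 nuclear genes for photosynthesis none was in the top 1000, against 3.59% of all probe sets. Their median of 3.23 was near that of all probe sets, 3.15. PSB29 was the highest at 8.32 ± 0.28. RBCS1A, a small subunit of Rubisco, gave 4.41, 5.84, 5.79 and 4.63, and LHCB1.1, a light-harvesting protein, gave 1.40, 1.74, 2.16 and 1.25.

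Surface and secreted proteins entered in small numbers. Of 232 genes for cell wall and arabinogalactan proteins 3 were in the top 300, or 1.29%, which is near the background share. All were arabinogalactan proteins. Beside AGP15, AGP1 gave 11.13, 11.00, 11.02 and 10.94, and AGP10 gave 10.45, 10.34, 10.76 and 10.38. Of 10 lipid transfer proteins, which carry lipids to the cell surface, 2 were in the top 300, or 20%. LTPG1 gave 9.98, 10.07, 10.15 and 10.15 and LTP3 gave 10.03, 10.16, 10.15 and 10.00. Early nodulin-like proteins, a family of copper-protein-like surface proteins, had 2 of 22 members in the top 300, or 9.09%, and 7 in the top 1000. ENODL14 gave 10.46, 10.67, 10.64 and 10.54, and ENODL3 gave 9.83, 10.16, 9.99 and 9.81. The family split widely, and ENODL18 was at 1.57.

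The remaining groups had few members in the top 300 by count, and their shares are read against 1.08%. Ubiquitin and proteasome genes had 4 of 161, or 2.48%. Among them were UBQ5 at 10.55 ± 0.13 and the proteasome subunits PBF1 at 10.00 ± 0.15 and PAG1 at 9.81 ± 0.13. Chaperones had 2 of 54, or 3.70%, CPN10 and HSC70-1, the latter at 10.09, 10.09, 9.90 and 9.77. Glycolysis had 1 of 22, or 4.55%. It was GAPC1, a glyceraldehyde-3-phosphate dehydrogenase, at 10.16, 10.48, 10.25 and 9.79. The S-adenosylmethionine cycle had 1 of 9, or 11.1%. It was HOG1, which removes S-adenosylhomocysteine, at 10.37, 10.25, 10.44 and 10.01. In the top 1000 these groups had 22.7% and 22.2%, against 3.59% of all probe sets. Redox and detoxification genes and membrane pumps and channels had none of 130 and none of 52. Their shares in the top 1000 were 5.38% and 3.85%. Genes named for arrested embryos in mutants had 9 of 322, or 2.80%, led by emb2386 at 11.00, 10.97, 10.93 and 10.83. EMB2296 followed at 10.82 ± 0.16 and MEE26 at 10.73 ± 0.12. Such names overlap the ribosomal proteins, so the share is not a separate result. EMB3010 is a gene for S6, and RP1, also named emb2207, has the synonym RPL3A. Of 147 non-coding RNAs with a name, 5 were in the top 300, or 3.40%. Among them was SNOR30, a small nucleolar RNA, at 10.41, 10.51, 10.35 and 9.95. The count also holds AT2G07763 and AT2G07755, tRNA loci of the AT2G07 range. AT2G07755 equalled the mitochondrial ATMG01340, so part of this share cannot be tied to a nuclear locus.

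Further named members lay outside these groups and were picked as examples after their values were seen. FD3, a ferredoxin, was at rank 44 with 10.68, 10.83, 10.89 and 10.64, and BTF3, named as a basic transcription factor, at rank 36 with 10.79, 10.95, 10.91 and 10.66. NDPK1, a nucleoside diphosphate kinase, gave 10.43, 10.78, 10.58 and 10.35. The plastid malate dehydrogenase MDH gave 10.42, 10.34, 10.43 and 10.84, so that array 4 was highest, while the mitochondrial enzyme mMDH1 gave 10.25, 10.34, 10.13 and 9.71 with array 4 lowest. NRPB10 and NRPB12, small subunits of nuclear RNA polymerases, had means of 10.35 ± 0.36 and 10.06 ± 0.12. The first was high on arrays 2 and 4, at 10.60 and 10.72, and near 10.03 and 10.07 on arrays 1 and 3. ATARCA, the ribosome-bound scaffold RACK1A, was steady at 10.26, 10.13, 10.18 and 10.13. The acyl carrier proteins mtACP2 and ACP1, which hold growing fatty acids in mitochondria and plastids, had means of 10.17 ± 0.19 and 9.85 ± 0.20, and both were lowest on array 4. CAM7, a calmodulin, gave 9.88, 10.37, 9.90 and 10.28, and the 14-3-3 proteins GRF10 and GRF3 had means of 10.25 ± 0.13 and 9.78 ± 0.12. SCRL26, a small cysteine-rich secreted peptide, gave 10.26, 9.70, 9.81 and 10.00, and ADS2, a fatty acid desaturase, gave 10.27 on array 1 and 9.55 to 9.82 on the others.

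Some regulators of embryo patterning were among the high signals. WOX genes encode homeodomain factors that mark early lineages, WOX2 in the upper and WOX8 and WOX9 in the lower daughter lineage of the zygote. WOX9 was at rank 120 with 10.08, 10.51, 10.40 and 10.35, and array 1 was lowest. WOX2 was at rank 179 with 9.82, 10.32, 10.06 and 10.28, again lowest on array 1. WOX8 was at rank 820 with 8.74, 8.91, 8.72 and 8.90. The other 12 of 15 family members lay at or below 3.75, the value of PRS, and WUS was at 3.64 ± 0.80. WOX2 and WOX9 overlapped in range, and WOX8 lay below both on every array.

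Auxin signalling genes were more graded. MP, the auxin response factor whose loss removes the embryonic root, had 9.04, 8.94, 9.09 and 9.02, a mean of 9.02 ± 0.06, and was the highest of 22 response factors. ARF18 was next at 8.06 ± 0.31 and ARF2 at 7.85 ± 0.46. None of 29 Aux/IAA proteins, which repress response factors, was in the top 1000, against 3.59% of all probe sets. IAA9 was the highest at 8.45 ± 0.14, then IAA30 at 7.74 ± 0.33 and IAA12, the repressor known to pair with MP in the embryo, at 7.22 ± 0.13. Among 8 PIN genes for auxin efflux carriers, PIN7 had a mean of 6.89 ± 0.32 and PIN4 of 6.40 ± 0.56. PIN5, PIN6 and PIN8 lay at 1.51, 1.61 and 1.51.

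**Figure D4:**
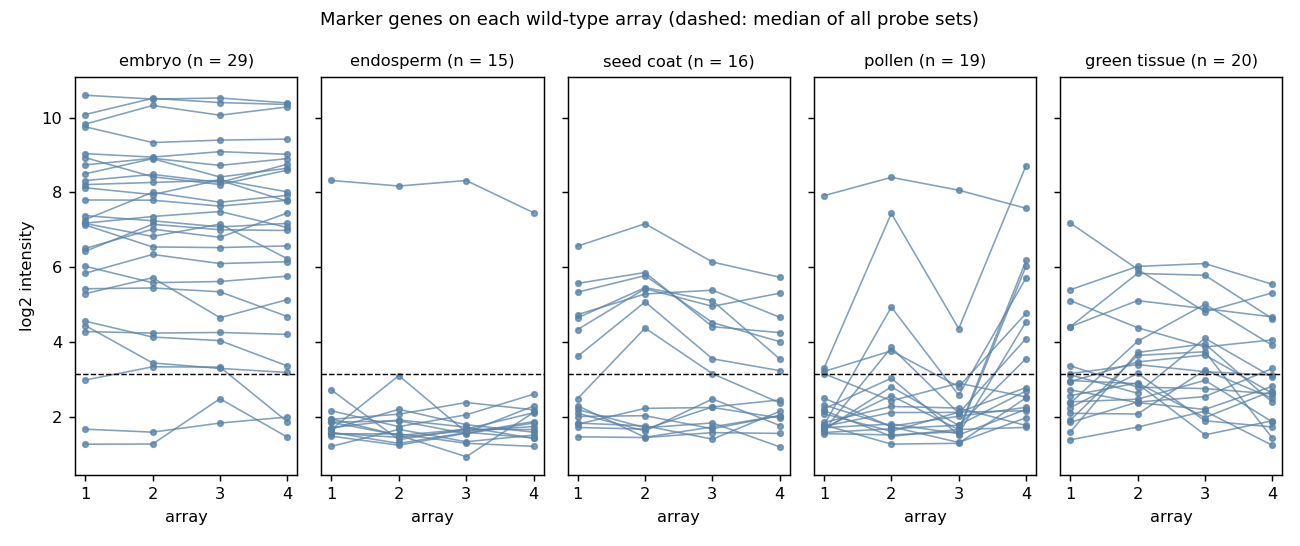
Log2 intensity of each marker gene (lines, 1 per gene) on the 4 wild-type arrays for 5 marker lists, with a dashed line at the median of all probe sets. Most embryo markers lie above the dashed line, while RKD4 and DRNL lie below it and PHV lies above it on arrays 2 and 3 only. Endosperm markers lie near the floor except SUC5, and several pollen markers are raised on array 4 and some of them on array 2.

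The labelled tissue was checked against marker lists. Of 29 embryo markers, 26 lay above the median of all probe sets, 3 in the top 300 and 7 in the top 1000, with a list median of 7.22. PDF1, a protodermal factor of the outer cell layer, was the highest at 10.60, 10.49, 10.52 and 10.39. RKD4, a factor of the zygote and early embryo, was the lowest at 1.28, 1.28, 2.49 and 1.47, and DRNL was at 1.78 ± 0.18. KCS10, known as FIDDLEHEAD and active in the epidermis, and CYP78A5, known as KLU, were singled out after their values were seen. They had means of 10.32 ± 0.15 and 10.76 ± 0.09.

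Of 15 endosperm markers 10 lay under the 25th percentile of all probe sets, 1.86, and 1 above the median. AGL62, FIS2 and MEA had means of 1.80, 1.61 and 1.70, and IKU2 was lowest at 1.41. The exception was SUC5, a sucrose carrier, at 8.32, 8.17, 8.32 and 7.46. The summed intensity of the list ran from 228 on array 4 to 370 on array 1. Of 16 seed coat markers 7 lay above the median and none in the top 1000. TT4, chalcone synthase, gave 6.57, 7.17, 6.14 and 5.74, BAN gave 5.57, 5.86, 4.42 and 4.26 and MUM4 gave 4.74, 5.29, 5.39 and 4.67, while TT1 was at 1.52 ± 0.07. Their summed intensity ran from 211 on array 4 to 465 on array 2.

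Pollen markers differed most between arrays. Of 19 measured, 4 lay above the median, and the summed intensity of the list was 326, 632, 357 and 933 on arrays 1 to 4. Much of these sums came from VGD1, at 9.88, 174, 20.6 and 422, and AtVEX1, at 241, 339, 267 and 191. VGD1, a pectin methylesterase of the pollen tube, gave 3.30, 7.44, 4.37 and 8.72. ANX1, a pollen tube receptor kinase, gave 1.79, 4.94, 2.59 and 5.72. RALFL4 and RALFL19, signal peptides of the pollen tube singled out after their values were seen, gave 6.04 and 6.19 on array 4 and at most 1.61 and 2.58 on the others. AtVEX1 was high on all arrays, at 7.91, 8.40, 8.06 and 7.58, and SYP125 was lowest at 1.73. Other pollen markers were not raised on array 4. PPME1 gave 2.51, 1.75, 1.33 and 1.99, HAP2 gave 3.16, 2.44, 2.91 and 2.54, and GEX2 gave 1.86, 2.29, 2.24 and 1.78. Of 20 green tissue markers, 9 lay above the median, and LHCB1.2 gave 7.19, 5.95, 4.81 and 5.32 with array 1 highest. LHCA4 was at 5.77 ± 0.35. None of the 70 markers of these other tissues was in the top 300. As 1.08% of all probe sets were in it, that count says little about these tissues.

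**Figure D5:**
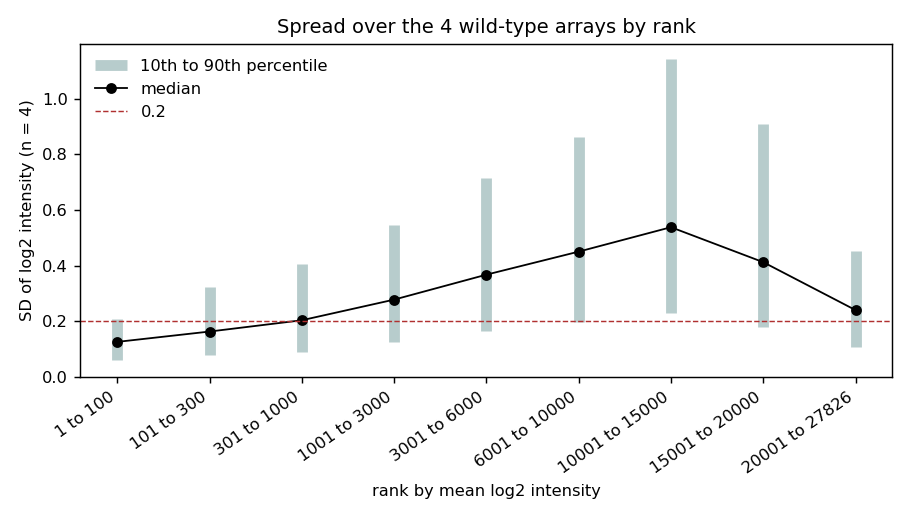
SD of log2 intensity over the 4 arrays (vertical axis) in 9 bins of rank (horizontal axis), with the median as points and the 10th to 90th percentile as bars, and a dashed line at 0.2. The median rises from 0.126 in the first 100 ranks to 0.538 at ranks 10001 to 15000 and falls again to 0.240 in the last bin.

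The 300 were steadier than most of the array, as the high end of the signal scale generally was. Their median SD was 0.144, against 0.344 over all probe sets, and 222 of them, 74.0%, had an SD under 0.2, against 21.3% of all probe sets. The median SD rose down the ranking, from 0.126 at ranks 1 to 100 and 0.163 at ranks 101 to 300 to 0.204 at ranks 301 to 1000 and 0.538 at ranks 10001 to 15000. At the floor of the scale it fell back to 0.240. Since level and spread move together in this way, the steadiness of the 300 cannot be told apart from their level. Whether signals near the top approached a ceiling of the scanner was not tested. The range over the arrays was under 1, a factor under 2, for 292 of the 300, against 65.4% of all probe sets. In 18 of the 300, or 6%, 1 array stood apart from the other 3 by Dixon's criterion, against 6.79% of all probe sets. Without array 4 the median SD of the top 300 was 0.118.

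Membership was stable. When the top 300 was chosen on 3 arrays, 262 to 273 of its members were among the top 300 of the array left out, at least 299 were among its first 600, and the lowest rank was 650. On single arrays, 236 of the 300 were in the top 300 of all 4, 38 of 3, 16 of 2 and 10 of 1, and none lay below rank 650 on any array. The limit itself is not sharp. AT2G44860, YLS8 and TCTP were just inside at 9.78, 9.78 and 9.77, and AT5G62440, AT3G05570 and 3xHMG-box2 were just outside at 9.77 each, with SDs of 0.06 to 0.20 that exceed these differences.

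Of the 6 steadiest members, 3 are known to the table by locus only. AT2G02050 gave 10.06, 10.02, 10.05 and 10.02, an SD of 0.019. STV1, ribosomal protein L24, gave 10.22, 10.19, 10.19 and 10.16, an SD of 0.024. AT1G29418 gave 11.10, 11.08, 11.04 and 11.09, an SD of 0.025. NOP10, a protein of the small nucleolar particles that modify ribosomal RNA, gave 9.98, 9.96, 9.90 and 9.94. LSM2 and AT3G03100, the latter at 9.80, 9.77, 9.85 and 9.80, completed the 6.

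At the other end, 8 members, 2.67%, had an SD over 0.5, against 28.7% of all probe sets. AT7SL-1, the RNA of the signal recognition particle, had the largest, 0.79, with 10.88, 10.75, 10.97 and, on array 4, 9.29. AT1G71950 gave 10.15, 9.48, 9.17 and 10.89, an SD of 0.76, with arrays 1 and 4 above arrays 2 and 3. AT1G16916 was high on array 4 alone, at 10.81 against 9.44 to 9.74. AT2G31670 was high on array 3, at 11.04 against 9.86 to 10.11. RUXF and GRP4 were high on array 1, with SDs of 0.69 and 0.62. The other two were ABCI4 at 10.21 ± 0.51, a locus of the AT2G07 range, and ATMG01320 at 9.83 ± 0.51. Of the 8, 4 were lowest on array 4, 3 on array 2 and 1 on array 3, while none was lowest on array 1. Without array 4 the count over 0.5 was 4, AT7SL-1 had 10.87 ± 0.11 and ATMG01320 had 10.08 ± 0.09 (SD, n = 3), and AT1G16916 and AT1G71950, at 9.61 and 9.60, left the list. For a gene standing on 1 array the mean rests on that array. RUXF without array 1 would lie between 9.49 and 9.54, under the limit of the list.

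Genes used to normalise other assays spread widely in level and steadiness. Of 25 listed, 4 were in the top 300 (UBQ5, GAPC1, ROC3 and YLS8) and 9 in the top 1000, with a median SD of 0.248. The steadiest were GAPC2 at 9.35, 9.53, 9.48 and 9.41, PEX4 at 7.07, 7.22, 7.04 and 7.27, UBQ5 at 10.61, 10.56, 10.37 and 10.66, and CBP20 at 8.59, 8.75, 8.41 and 8.60. The least steady were UBC9, which ran from 3.75 on array 1 to 5.87 on array 3, AT2G28390 with 6.31, 5.89, 5.12 and 4.79, PP2AA3 with 6.77, 7.18, 7.01 and 5.74, and AT2G32170 with 3.46, 3.45, 4.58 and 3.83. All of the latter ranked below 3000, where the median SD was 0.368 or more down to rank 15000.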

How the data were processed

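Total RNA of pooled embryos was converted to biotin-labelled whole-transcript cDNA and hybridised to 1-colour arrays, per the labels' protocols. The authors deposited 1 intensity value per probe set and array, on a linear scale. Per the submitters' processing notes RMA was used, with no version given; the sources used here name no chip definition or build. With no detection calls in hand, the background level is unknown, and precision is limited by having 4 arrays. Log2 was taken with no pseudocount, and genes were ranked by the mean of 4 arrays with Python 3.11.15, NumPy 2.4.6 and pandas 2.3.3. SDs are over arrays (n = 4), and spread between these samples may be technical. No groups were compared, and no test was made apart from Dixon's criterion for 1 array apart. A gene table of assembly TAIR10.1 held 27241 loci, 10556 of them with a symbol. Of the 21 pollen markers, 2 had no match. The ranking step was tried on simulated data whose noise did not depend on level, unlike that of the arrays. It checks the calculation and not the results.

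The members and lists were chosen with earlier results of these data known. The name patterns of 17 groups were narrowed after seeing which genes they took, and 9 groups (Sm and LSM, import, embryo-defective, WOX, early nodulin-like, non-coding RNA, response factor, Aux/IAA and PIN) were added after values were seen. Genes are named by rule: the 20 highest nuclear, 5 highest plastid and 5 highest mitochondrial, up to 4 per group, the 6 smallest and 6 largest SDs, 3 each side of rank 300, the 3 highest and the lowest of each marker list, and the 4 steadiest and 4 least steady reference genes. A few genes named by it are not reported here. Names outside the rule were taken as further examples after their values were seen. Promoter sequences were not used here, so the planned motif count was not made. Alternatives were equal medians, quantile normalisation, ranking by the median or linear mean, identical probe sets counted once, only loci of the gene table, and leaving out each array.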

Additional observations from a re-analysis of the deposited data

Results flagged for a closer look

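Of 121 sets of 4 values checked (named genes, marker list means and genome medians), 8 had 1 array apart from the other 3, with a gap that took a larger part of the whole range than Dixon's critical value for 4 samples allows. Chance gives about 1 in 20 such sets when they are not chosen by their spread. Some named genes, GRP4, RUXF and AT7SL-1 among them, were named for a large SD over the same arrays. The 8 can therefore not be weighed against that rate. Over all probe sets 6.79% had 1 array apart, and in the top 300 it was 18 genes, or 6%. On array 1, GRP4 read 10.91 against 9.54 to 9.77, RUXF 10.90 against 9.49 to 9.54 and ATMG00360 11.40 against 11.06 to 11.08. On array 4, AT7SL-1 read 9.29 against 10.75 to 10.97, PBF1 9.77 against 10.05 to 10.08 and TCTP 9.51 against 9.83 to 9.89. CPN10 read 11.30 on array 2 against 11.02 to 11.06. RKD4 read 2.49 on array 3 against 1.28 to 1.47, at the floor of the scale. The pollen list mean did not meet this rule, since array 2 lay between array 4 and the other two.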

How the results depend on the processing

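No paired analysis was possible because no groups were compared. The counts of nuclear genes (280 to 300) and ribosomal proteins (16 in each) stayed within 1.5 times of the reported ones under each alternative named above. Of 408 recomputed counts and summary values, 391 stayed within that limit or within the spread between arrays. Quantile normalisation gave a median SD of 0.118 for the top 300 and 0.336 for all probe sets. Leaving out 1 array gave 0.118 to 0.145 and 0.307 to 0.327. Ranking by the median left 1 RNA-binding protein, and leaving out 1 array left 1 to 3. Leaving out 1 array gave 3 to 5 chromatin genes. Plastid genes numbered 2 with identical probe sets counted once. Ranking only loci of the gene table left 0 plastid and 0 mitochondrial genes, which it does not hold, and let 1 tubulin in. Chosen after seeing the data, arrays 1 and 3 alone gave 3 Sm and LSM proteins and median SDs of 0.102 and 0.256 (from 2 values each), and shared 288 of the 300. Leaving out 1 array kept 291 to 294 of the 300, and leaving out the AT2G07 loci kept 289. With no detection calls, values near 1 to 2 may hold no signal of the gene.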
